A study of Mus musculus with 6 samples.

Results

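A set of 10 imprinted or imprinting-linked growth genes were followed in upper (maxillary) first molars of newborn mice that carried an Ascl5 mutation on no, 1 or both alleles. They were Mest, Copg2, Igf2, H19, Dlk1, Meg3, Peg3, Cdkn1c, Plagl1 and Ndn, chosen by gene symbol among the 24972 genes in each deposited table. Ascl5 is a transcription factor of the basic helix-loop-helix family. Molars were taken at postnatal day 1 from Ascl5WT/WT controls, Ascl5Mut/WT heterozygotes and Ascl5Mut/Mut homozygotes, with 2 libraries per genotype, 6 in all. All libraries were made from total RNA of whole first molars and carry the same batch label. The labels name no strain, no kind of mutation and no number of animals behind a sample. The p-values therefore refer to these samples, not to animals.

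Imprinted genes are transcribed mainly from the copy inherited from either the father or the mother, under the control of DNA methylation set in the germ line. Many act on fetal and newborn growth, with paternally expressed genes such as Igf2 often promoting it and maternally expressed genes such as Cdkn1c often restraining it. They sit in clusters in which a coding gene and a long non-coding RNA share control regions, as with Igf2 and H19 or Dlk1 and Meg3. Copg2 encodes the gamma-2 subunit of COPI, the coat of vesicles that return from the Golgi to the endoplasmic reticulum, and is a member here because its tail lies across that of Mest.

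All values are the authors' normalized counts per gene, on a linear scale. Each table held the Ascl5WT/WT libraries beside those of 1 mutant genotype, and the wild-type values differ between the 2 tables, which shows separate normalization. Each mutant was therefore tested only within its table, and the mutants are set side by side with no test between them. Both comparisons use the same Ascl5WT/WT molars. Tests were two-sided with limma on log2(normalized count + 120), with a minimum mean of 1000 over a table's 4 libraries, and a Benjamini-Hochberg adjusted p under 0.05 counted as a call. With so few libraries, the limma variance of a gene was drawn partly from other tested genes of similar level. A fold change is mutant minus Ascl5WT/WT on that scale, which understates the change of low genes.

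Total normalized counts ran from 12304800 to 13118100 per library. Low values lay near multiples of a step of 108.7 to 139.8 normalized counts, which appears to be the worth of 1 read, so the estimated depth was 90476 to 117319 counted reads. For counting error only, a gene listed at 0 is compatible with an expected level of up to 3 reads. That is 326 to 419 normalized counts, depending on the library. Between 66.6% and 71.0% of genes were listed at 0 per library. Of the tissue's defining markers, the epithelial keratin Krt14 stood at 14740 and 13227 in the Ascl5WT/WT libraries, while the dental mesenchyme factors Pax9 and Lhx8 were listed at 0 in both and Msx1 in replicate 2. In bulk molars, fewer cells of a type and less RNA per cell cannot be told apart.

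Mest and Copg2 meet tail to tail on chromosome 6. In GENCODE M21 on GRCm38, Mest (ENSMUSG00000051855.15) runs on the plus strand from 30723547 to 30748465 and Copg2 (ENSMUSG00000025607.15) on the minus strand from 30747554 to 30896794. Their last exons share 912 bases, from 30747554 to 30748465, which is 23.1% of the merged exon length of Mest and 17.8% of that of Copg2. The shared stretch holds 0 coding bases of either gene. Outside it the exons of the genes are separate, and the start sites lie at opposite ends of the pair. The library kit keeps strand, but the strand setting used in counting is not given in the sources used here, so reads from the shared bases of Mest and Copg2 cannot be told apart.

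**Figure D1:**
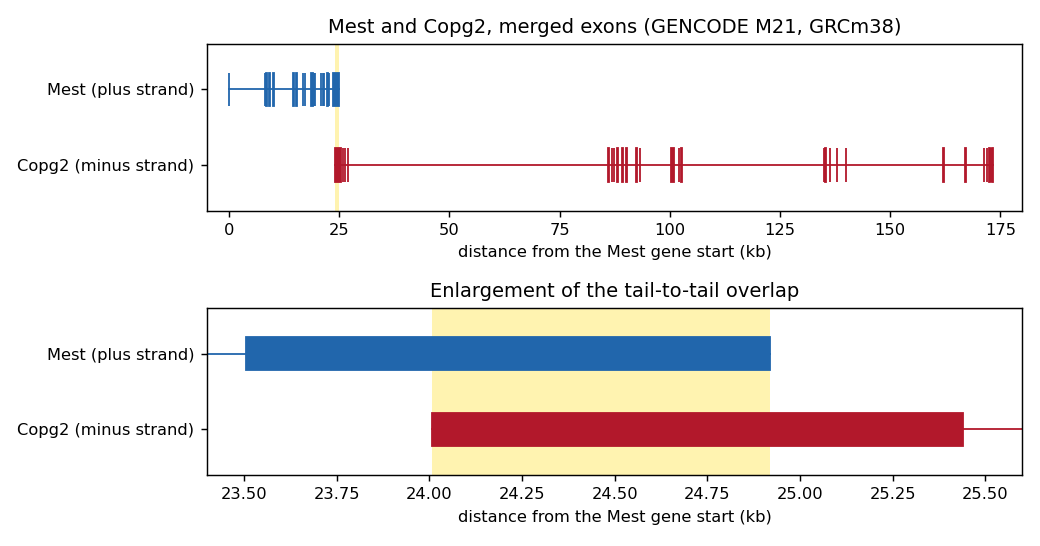
Merged exons of Mest (blue, plus strand) and Copg2 (red, minus strand) against distance from the Mest gene start in kb, with the tail-to-tail overlap enlarged in the lower panel. The yellow band marks the 912 shared bases, which lie in the last exon of each gene.

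The 250 bases before a start of Mest, Copg2 and Igf2 are shown because these are the members whose levels the results turn on. Methylation of their CpG was not measured, and the windows are not shown as sites of an imprint. RefSeq (GRCm38.p6) gave promoters for 8 of the 10 members, and none was used for H19 or Cdkn1c. Each sequence ends just before its start site and is written 5′ to 3′ on the gene's strand, with every CpG in capitals.

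Mest, chr6:30737800-30738049, plus strand: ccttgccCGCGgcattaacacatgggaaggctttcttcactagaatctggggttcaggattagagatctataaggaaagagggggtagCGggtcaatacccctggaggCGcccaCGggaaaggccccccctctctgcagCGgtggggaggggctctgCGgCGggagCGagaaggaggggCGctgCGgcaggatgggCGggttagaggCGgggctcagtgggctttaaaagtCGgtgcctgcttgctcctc

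Copg2, chr6:30896795-30897044, minus strand: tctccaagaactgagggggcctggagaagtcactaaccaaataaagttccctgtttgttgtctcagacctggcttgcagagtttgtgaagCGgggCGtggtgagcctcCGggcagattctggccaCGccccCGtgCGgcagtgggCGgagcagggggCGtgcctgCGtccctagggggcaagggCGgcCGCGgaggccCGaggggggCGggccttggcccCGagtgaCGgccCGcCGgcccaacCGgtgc

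Igf2, chr7:142658805-142659054, minus strand: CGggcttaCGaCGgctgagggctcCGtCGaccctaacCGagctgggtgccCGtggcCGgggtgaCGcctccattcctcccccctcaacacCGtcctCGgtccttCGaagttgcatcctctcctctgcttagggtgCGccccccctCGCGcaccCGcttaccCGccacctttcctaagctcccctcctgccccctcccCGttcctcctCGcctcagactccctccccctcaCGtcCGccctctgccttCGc

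The Mest window held 14 CpG, more than 70.7% of 32817 RefSeq promoter windows of that length, whose median was 6. The Copg2 window held 19, more than 80.3% of windows, and the Igf2 window 22, more than 85.2%. Basic helix-loop-helix factors bind the E-box CANNTG, which reads the same on both strands. It matched 1 time in the Mest window and 0 times in the Copg2 and Igf2 windows, and 66.2% of all windows held at least 1 match. A match is only a description of the letters. RefSeq lists other starts for Mest and Igf2, of which the window with the most CpG is shown, and the start used in molars was not read from gene counts. The window before the most upstream Mest start held 7 CpG and 2 CANNTG, 1 of them CAGCTG, a form that 13.01% of all windows held. The other Igf2 windows held 6, 10 and 1 CpG, and the last of these, before the most upstream start, held 2 CANNTG.

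Mest and H19 also carry microRNAs, shown because a gene count for the host does not measure them. Mir335 lies in an intron of Mest and Mir675 within an exon of H19. The seeds, bases 2 to 8, are in capitals.

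mmu-miR-335-5p, chr6:30741314-30741336, plus strand: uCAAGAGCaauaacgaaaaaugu

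mmu-miR-675-5p, chr7:142577112-142577133, minus strand: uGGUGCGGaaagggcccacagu

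The rows of Mir335 and Mir675 were listed at 0 in all 6 libraries, as was Mir483 in an intron of Igf2.

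Copg2 rose in Ascl5Mut/Mut molars, while Mest did not pass the test in either genotype. Copg2 stood at 52675 and 67446 normalized counts in the Ascl5WT/WT libraries and at 196278 and 143155 in the Ascl5Mut/Mut libraries. The lowest mutant library was 2.12 times the highest wild-type library. The means were 60060 ± 10445 and 169717 ± 37564 (SD, n = 2 each), a ratio of 2.83 and a log2 fold change of 1.49 (SE 0.26, limma adjusted p = 0.0337). Copg2 was the only member called, against 0.856% of the 2336 genes tested in that table. That call did not hold when any of the 4 libraries was left out: the limma adjusted p was 0.419 and 0.484 without Ascl5Mut/Mut replicate 1 or 2, and 0.342 and 0.0837 without Ascl5WT/WT replicate 1 or 2. The fold change in those fits ran from 1.26 to 1.72.

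In the Ascl5Mut/WT table Copg2 stood at 53645 and 70259 in the Ascl5WT/WT libraries and at 133414 and 110745 in the Ascl5Mut/WT libraries. The groups did not overlap, and the ratio of means was 1.97. The log2 fold change of Copg2 was 0.98 (SE 0.27, limma unadjusted p = 0.00198), which did not pass adjustment over all genes (limma adjusted p = 0.168). Without Ascl5WT/WT replicate 2 it was 1.18 with a limma adjusted p of 0.0446. Set side by side without a test, both Ascl5Mut/Mut values lay above both Ascl5Mut/WT values.

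Mest, which encodes a hydrolase-fold protein expressed from the paternal copy, stood at 6990 and 6189 normalized counts in Ascl5WT/WT and at 4987 and 5059 in Ascl5Mut/Mut molars. Both mutant libraries lay below both wild-type libraries, an order that 21.8% of tested genes shared. The log2 fold change of Mest was -0.38 (SE 0.43, limma adjusted p = 0.761). Against its own Ascl5WT/WT values of 6907 and 6256, the Ascl5Mut/WT libraries held Mest at 6979 and 5823, so the groups overlapped. That log2 fold change was -0.04 (SE 0.42, limma adjusted p = 0.985) and took the other sign, at 0.08 without Ascl5Mut/WT replicate 2 and 0.03 without Ascl5WT/WT replicate 1. The estimated reads behind Mest were 35.7 to 64.3 per library in the Ascl5Mut/Mut table, and those behind Copg2 484.6 to 1404.

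The balance of the pair is given per kb of merged exons, since the genes differ in length. The Copg2 level per kb was 5.81 and 8.39 times the Mest level per kb in the Ascl5WT/WT libraries of the Ascl5Mut/Mut table. It was 30.3 and 21.8 times that level in the Ascl5Mut/Mut libraries and 14.7 times in each Ascl5Mut/WT library. The 3 genotypes did not overlap on this ratio. It follows from the values above and was not tested.

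**Figure D2:**
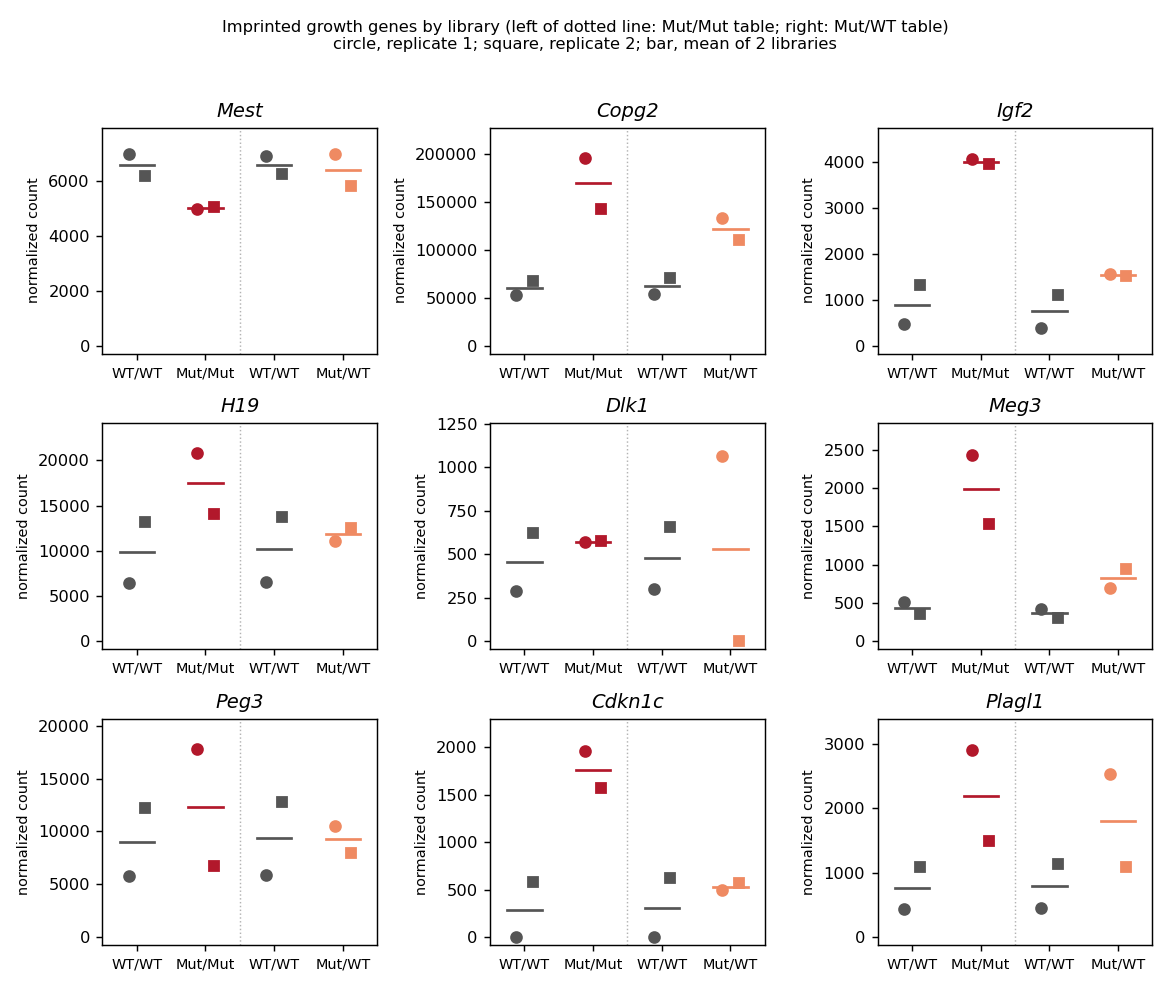
Normalized counts of the 9 members above 0, by library, with circles for replicate 1, squares for replicate 2 and bars for the mean of 2 libraries. Left of each dotted line is the Ascl5Mut/Mut table and right of it the Ascl5Mut/WT table. Copg2 in the Ascl5Mut/Mut libraries lies at 143155 and 196278, above both wild-type libraries, and Mest at 4987 and 5059, below both.

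The value listed for Copg2 was far above those of the other subunits of its own complex. The strand setting used in counting is not given. The part of reads from the 912 bases shared with Mest in the Copg2 values was not tested. Per kb of merged exons Copg2 stood at 10286 and 13170 in Ascl5WT/WT molars, 38328 and 27954 in Ascl5Mut/Mut molars and 26052 and 21626 in Ascl5Mut/WT molars. Among 24482 genes with a length it ranked 28 and 23 in the Ascl5WT/WT libraries, 3 and 3 in Ascl5Mut/Mut, and 7 and 5 in Ascl5Mut/WT. The highest of the other 8 COPI subunits was exceeded 27.4 and 19.04 times per kb by Copg2 in Ascl5WT/WT libraries and 140 and 267 times in Ascl5Mut/Mut libraries. The figures for the Ascl5Mut/WT libraries were 43.8 and 56.9.

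The other coat subunits did not follow a common direction, and all were low. Of the 9 COPI genes, 3 were tested in the Ascl5Mut/Mut table and only Copg2 was called, against 0.856% of all tested genes. Copb1, the beta-1 subunit, stood at 1437 and 2318 normalized counts in Ascl5WT/WT and at 1528 and 133 in Ascl5Mut/Mut molars. Cope, the epsilon subunit, stood at 1258 and 2319 against 829 and 0. Copa, the alpha subunit, was close between the groups at 979 and 839 against 993 and 942. Below the minimum mean, the beta-2 subunit gene Copb2 was above both controls at 1271 and 665 against 221 and 481, and Arcn1, the delta subunit, below them at 558 and 534 against 882 and 1092. Copg1, the paralog that fills the same place in the coat as Copg2, was at 218 and 0 in Ascl5WT/WT and at 0 and 136 in Ascl5Mut/Mut libraries, all within the worth of 3 reads. For Ascl5Mut/WT, 4 COPI genes were tested and 0 were called by limma (0.549% of all tested genes). Copg2 alone had a limma unadjusted p under 0.05 (8.73% of all tested genes). Copa was then above both controls at 1275 and 1891 against 998 and 875, and Copg1 at 631 and 545 against 223 and 0. Copb1 was below both controls at 872 and 801 against 1466 and 2419. The Copa controls were under 1000, so Copa passed the minimum only through the mutant libraries and had to be higher there. The Copb1 mutants were under 1000, so Copb1 had to be lower. In the Ascl5Mut/Mut table, Copb1 and Cope had mutant means under 1000 and likewise had to be lower.

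**Figure D3:**
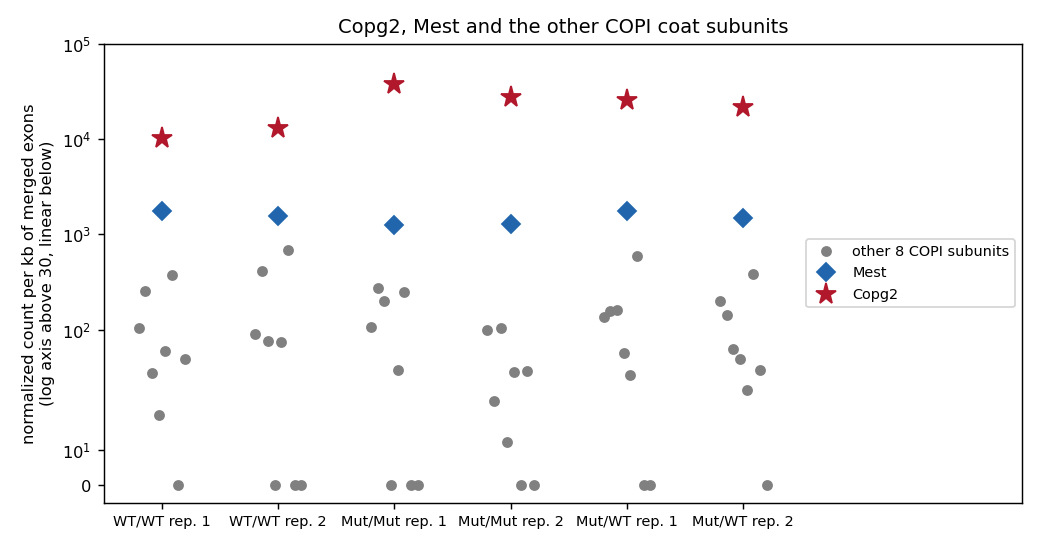
Normalized count per kb of merged exons for Copg2 (stars), Mest (diamonds) and the other 8 COPI subunits (grey points) in each library, on an axis that is logarithmic above 30 and linear below. The Ascl5WT/WT libraries are those of the Ascl5Mut/Mut table. Copg2 lies at 10286 or above in every library, and each grey point lies below Mest.

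The genes whose pattern was most like that of Copg2 or Mest were taken by the lower of their correlations over the 4 libraries of each table. Among 2028 genes compared, Zdhhc17, a palmitoyltransferase, had the closest pattern to Copg2, with r = 0.998 in the Ascl5Mut/Mut table and 0.999 in the Ascl5Mut/WT table. Its values were 772 and 1232 in Ascl5WT/WT, 4317 and 2896 in Ascl5Mut/Mut and 3398 and 2670 in Ascl5Mut/WT molars. Bysl, Adnp2, the fibrillar collagen gene Col3a1 and Gm3693 followed. Bysl shares 361 exon bases with the cyclin gene Ccnd3 on the opposite strand, and the source of reads from them cannot be told apart. For Mest the nearest were Tax1bp1 (r = 0.975 and 0.953), Kdelr3, Apcdd1, Glt8d2 and Map1b. Mest and Copg2 had r = -0.975 and -0.162 with each other. These r values rest on 4 libraries, the tables share the Ascl5WT/WT libraries, and 57 genes had r over 0.9 with Copg2 in both tables and 7 with Mest.

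Igf2 and H19, neighbours 72.6 kb apart on chromosome 7, were both above their wild-type values in Ascl5Mut/Mut molars, and neither passed adjustment. Igf2 (142650766 to 142666816, minus strand) encodes insulin-like growth factor 2, the main fetal growth ligand, and is expressed from the paternal copy. It stood at 477 and 1315 normalized counts in Ascl5WT/WT and at 4052 and 3959 in Ascl5Mut/Mut molars. The mutant libraries lay close together and well above both controls, with a ratio of means of 4.47. Igf2 had a log2 fold change of 2.16 (SE 0.68, limma unadjusted p = 0.00991, adjusted p = 0.257), which ran from 1.52 without Ascl5WT/WT replicate 1 to 2.79 without replicate 2. Igf2 in the Ascl5Mut/WT table stood at 391 and 1103 against 1561 and 1522, with a log2 fold change of 1.07 (SE 0.93, limma adjusted p = 0.744).

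The depth behind Igf2 was low, at an estimated 4.39 and 10.96 reads in the Ascl5WT/WT libraries, 29.0 and 29.1 in Ascl5Mut/Mut and 12.3 and 11.1 in Ascl5Mut/WT. The same Ascl5WT/WT libraries also differed between the tables for Igf2, by ratios of 0.820 and 0.839, and for Meg3, by 0.828 and 0.847. The median gene's ratios were 1.018 and 1.041. The scaling of Igf2 and Meg3 thus differed from that of most genes, and a step per read is approximate for them. To a smaller extent this held for Mest, at 0.988 and 1.011, and for Cdkn1c, at 1.077 in replicate 2. In GENCODE M21, Igf2 also shares 3596 exon bases (62.8% of its exon length) with the model Gm49394 on the same strand, which was not used here.

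H19 (142575529 to 142578143, minus strand) is a long non-coding RNA expressed from the maternal copy. It stood at 6495 and 13230 normalized counts in Ascl5WT/WT and at 20792 and 14075 in Ascl5Mut/Mut molars. The groups did not overlap, but the lowest mutant library was only 1.06 times the highest control. H19 had a log2 fold change of 0.87 (SE 0.43, limma adjusted p = 0.503), which ran from 0.37 without Ascl5WT/WT replicate 1 to 1.38 without replicate 2. For Ascl5Mut/WT, H19 stood at 6592 and 13736 against 11115 and 12530, which overlapped, with a log2 fold change of 0.31 (SE 0.41, limma adjusted p = 0.839) that was -0.22 without Ascl5WT/WT replicate 1.

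H19 exceeded Igf2 in every library. Per kb of merged exons the H19 level was 31.7 and 23.41 times the Igf2 level in the Ascl5WT/WT libraries of the Ascl5Mut/Mut table, and 11.9 and 8.27 times in the Ascl5Mut/Mut libraries. Heterozygous molars stood at 16.6 and 19.2 times, and the controls of their table at 39.2 and 29.0 times. The antisense transcript Igf2os shares 98 exon bases with Igf2 on the opposite strand. It stood at 638 and 0 in Ascl5WT/WT, 3087 and 1113 in Ascl5Mut/Mut and 2171 and 0 in Ascl5Mut/WT molars.

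The partners of Igf2 were mixed. Igf2r, the maternally expressed receptor that clears Igf2, stood at 4352 and 5363 in Ascl5WT/WT and 9606 and 11146 in Ascl5Mut/Mut molars, a log2 fold change of 1.08 (SE 0.41, limma adjusted p = 0.366). Grb10, a maternally expressed adaptor that restrains signalling by the insulin and IGF receptors, stood at 3390 and 7027 against 12661 and 14858, a log2 fold change of 1.47 (SE 0.45, limma adjusted p = 0.246). The RNA-binding protein gene Igf2bp3 stood at 7568 and 9000 against 5305 and 7485. It shares 1529 exon bases (18.7% of its exon length) with Malsu1 on the opposite strand. Without the strand setting, the source of reads from those bases cannot be told apart. The ligand Igf1 was too low to test in that table, at 113 and 648 against 1332 and 1526. Of the 18 genes of insulin-like growth factor signalling, 3 were tested with 0 called by limma and a median log2 fold change of -0.38. Among these, 1 had a limma unadjusted p under 0.05 (11.2% of all tested genes). For Ascl5Mut/WT, 5 were tested with 0 called by limma and a median of 0.86. None of the 5 had a limma unadjusted p under 0.05 (8.73% of all tested genes). Of these, Igf1 and Igf1r passed the minimum only through the mutant libraries.

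Dlk1 and Meg3 mark the imprinted cluster of chromosome 12, where they lie 77.7 kb apart. Dlk1 (109452823 to 109463336, plus strand) encodes a paternally expressed transmembrane protein of the Notch ligand family. It stood at 292 and 622 normalized counts in Ascl5WT/WT, 571 and 578 in Ascl5Mut/Mut, and 1067 and 0 in Ascl5Mut/WT molars. Its groups overlapped, and its mean was below the minimum for a test in both tables. A difference in Dlk1 was not detectable at an estimated 2.68 to 5.19 reads per library in the Ascl5Mut/Mut table.

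Meg3 (109541001 to 109571726, plus strand) is a maternally expressed long non-coding RNA. It stood at 511 and 362 in Ascl5WT/WT and at 2435 and 1529 in Ascl5Mut/Mut molars, with no overlap. The log2 fold change of Meg3 was 1.90 (SE 0.97, limma adjusted p = 0.508), on an estimated 4.70 and 3.02 reads against 17.4 and 11.2. Meg3 was below the minimum mean in the other table, at 423 and 306 in Ascl5WT/WT and 699 and 950 in Ascl5Mut/WT molars, again with no overlap.

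Rtl1, a paternally expressed gene of retrotransposon origin that lies between Meg3 and Rian, had by far the highest level of the cluster. It stood at 20703 and 49196 in Ascl5WT/WT and at 186909 and 28401 in Ascl5Mut/Mut molars, so that replicate 1 alone was above both controls. Its log2 fold change was 1.19 (SE 0.72, limma adjusted p = 0.557). In Ascl5Mut/WT molars Rtl1 stood at 84483 and 58275, above both controls of that table, with a log2 fold change of 1.09 (SE 0.36, limma adjusted p = 0.269). MicroRNA models such as Mir127 and Mir136 lie opposite exon bases of Rtl1. Without the strand setting, the source of reads from those bases cannot be told apart. Rian, a maternally expressed non-coding RNA of the cluster, was scattered at 0 and 2814 in Ascl5WT/WT and 1825 and 666 in Ascl5Mut/Mut libraries.

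On few reads, both Ascl5Mut/Mut libraries held more Cdkn1c and Plagl1 than the controls did. Cdkn1c (chromosome 7, 143458339 to 143461050, minus strand) encodes p57, a maternally expressed inhibitor of cyclin-dependent kinases that stops the cell cycle in differentiating cells. It stood at 0 and 576 normalized counts in Ascl5WT/WT and at 1954 and 1564 in Ascl5Mut/Mut molars, an estimated 0 and 4.80 reads against 14.0 and 11.5. The log2 fold change of Cdkn1c was 2.69 (SE 1.603, limma adjusted p = 0.557). It depended on the control listed at 0, running from 1.43 without Ascl5WT/WT replicate 1 to 3.96 without replicate 2, and on the pseudocount, at 6.19 with a pseudocount of 1 and 1.62 with 500. Of its exon length, 30.7% lies opposite the antisense model Gm44732, so without the strand setting the source of those reads cannot be told apart. In Ascl5Mut/WT molars Cdkn1c stood at 493 and 565, inside the range of its controls at 0 and 621, and was not tested.

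Kcnq1ot1, the paternally expressed antisense RNA that silences Cdkn1c on the paternal chromosome, was above both controls in both mutants. It stood at 2407 and 4716 in Ascl5WT/WT, 19328 and 8834 in Ascl5Mut/Mut and 14584 and 8274 in Ascl5Mut/WT molars. The log2 fold changes of Kcnq1ot1 were 1.92 (SE 0.52, limma adjusted p = 0.191) and 1.64 (SE 0.47, limma adjusted p = 0.178). Phlda2, Slc22a18 and Ascl2 of the same cluster were listed at 0 in all 6 libraries.

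Plagl1 (chromosome 10, 13060504 to 13131694, plus strand) encodes a paternally expressed zinc-finger factor that is placed upstream of other imprinted genes. It stood at 437 and 1094 in Ascl5WT/WT and at 2902 and 1492 in Ascl5Mut/Mut molars, with no overlap. Plagl1 had a log2 fold change of 1.42 (SE 0.84, limma adjusted p = 0.556), which ran from 0.86 without Ascl5WT/WT replicate 1 to 1.99 without replicate 2. Plagl1 in the Ascl5Mut/WT table stood at 443 and 1136 against 2528 and 1081, which overlapped, with a log2 fold change of 1.08 (SE 0.89, limma adjusted p = 0.722).

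No difference was detected for Peg3, and Ndn was not detected at all. Peg3 (chromosome 7, 6703892 to 6730431, minus strand), a paternally expressed zinc-finger gene, stood at 5786 and 12247 normalized counts in Ascl5WT/WT and at 17855 and 6754 in Ascl5Mut/Mut molars. The groups overlapped, with 1 mutant library above both controls and 1 between them, and a log2 fold change of 0.38 (SE 0.54, limma adjusted p = 0.820). The sign of Peg3 turned to -0.31 without Ascl5Mut/Mut replicate 1 and to -0.15 without Ascl5WT/WT replicate 1. Heterozygous molars and their controls also overlapped: Peg3 stood at 5899 and 12772 in Ascl5WT/WT against 10509 and 7986, a log2 fold change of 0.08 (SE 0.43, limma adjusted p = 0.971), which was -0.12 without Ascl5Mut/WT replicate 1 and -0.47 without Ascl5WT/WT replicate 1.

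Ndn (chromosome 7, 62346569 to 62350262, plus strand), a paternally expressed gene of the MAGE family known from neurons, was listed at 0 in all 6 libraries. Magel2 and Mkrn3 of the same imprinted region were also at 0 throughout. Snrpn, which shares that region, stood at 233 and 734 in Ascl5WT/WT and at 0 in every mutant library, within or near the worth of a few reads. A gene at 0 here is compatible with an expected level of up to 3 reads per library.

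**Figure D4:**
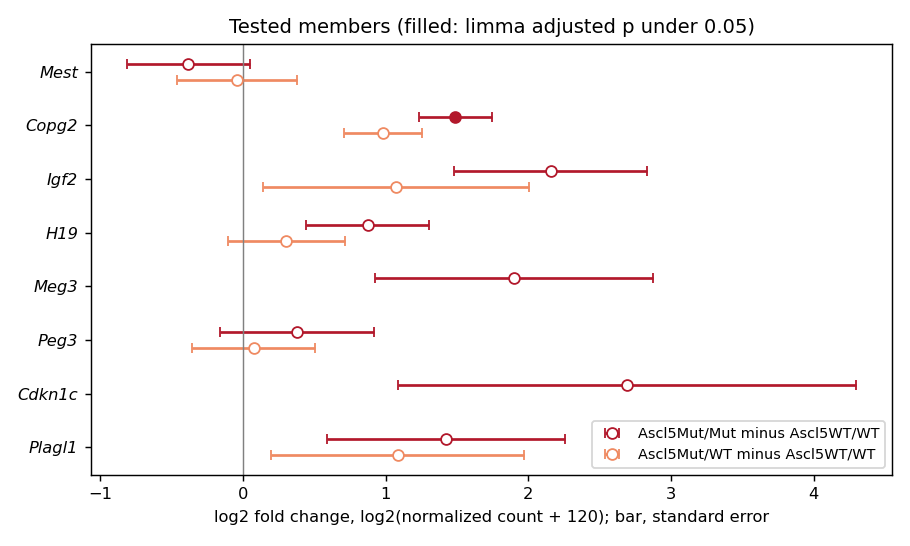
Log2 fold change of each tested member, mutant minus Ascl5WT/WT on the log2(normalized count + 120) scale, with bars for the standard error. Dark red is Ascl5Mut/Mut and orange Ascl5Mut/WT, and a filled point is a limma adjusted p under 0.05. Only Copg2 in Ascl5Mut/Mut, at 1.49, is filled, and Mest lies at -0.38 and -0.04.

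As a group, 8 of the 10 members were tested in the Ascl5Mut/Mut table: 1 was called higher (0.557% of all tested genes were), 0 were called lower (0.3%) and 2, Copg2 and Igf2, had a limma unadjusted p under 0.05 (11.2% of all tested genes did). Of those 8, 7 had a log2 fold change above 0, against 49.2% of all 2336 tested genes. In 6 of the 8 both mutant libraries lay above both controls, against 22% of tested genes, and in Mest alone both lay below. Igf2, Meg3, Cdkn1c and Plagl1 had control means under 1000 and passed the minimum only through the mutant libraries, so they had to be higher there, and these counts are a description. The median log2 fold change of the 8 was 1.46, and that of all tested genes -0.02.

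For Ascl5Mut/WT, 6 of the 10 members were tested: 0 were called by limma in either direction (0.549% of 2370 genes were called, 0.338% as higher and 0.211% as lower), with Copg2 alone at an unadjusted p under 0.05 (8.73% of all tested genes). Of the 6, 5 had a log2 fold change above 0 (52.1% of all tested genes), and 2, Copg2 and Igf2, did not overlap with the controls (21.1% lay above both). Their median was 0.64, and that of all tested genes 0.04. Igf2 and Plagl1 had control means under 1000 here too and passed the minimum only through the mutant libraries, so these counts and the median are a description.

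The 4 highest members by mean level per kb of merged exons came in the same order in every genotype. In Ascl5WT/WT molars of the Ascl5Mut/Mut table it ran Copg2 at 11728 ± 2040, H19 at 4009 ± 1936, Mest at 1670 ± 143 and Peg3 at 677 ± 343 (SD, n = 2). Igf2 at 157 ± 103.5, Cdkn1c at 141 ± 200, Plagl1 at 97.9 ± 59.4 and Dlk1 at 80.8 ± 41.3 followed and did not differ beyond their spread, then came Meg3 at 24.1 ± 5.83. In Ascl5Mut/Mut molars the first 4 means were 33141 ± 7335 for Copg2, 7087 ± 1931 for H19, 1273 ± 12.9 for Mest and 924 ± 589 for Peg3. Mest and Peg3 did not differ beyond their spread there, and in replicate 1 Peg3 at 1340 exceeded Mest at 1264. Cdkn1c at 863 ± 135 and Igf2 at 700 ± 11.5 then lay within the spread of Peg3.

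Other imprinted genes were described by parental copy. Of 23 further paternally expressed genes in the tables, 7 were tested for Ascl5Mut/Mut: limma called 0, with Zrsr1 and Kcnq1ot1 at an unadjusted p under 0.05 (11.2% of all tested genes), and the median log2 fold change was 1.19. Zrsr1 and Igf2os had control means under 1000 and passed the minimum only through the mutant libraries, so this count and median are a description. Nnat stood at 1511 and 2226 against 2946 and 3648, and Zrsr1 at 1430 and 362 against 3909 and 2953. Inpp5f stood lower in the mutants, at 33233 and 22612 against 18151 and 18663. Of 28 maternally expressed genes, 5 were tested: limma called 0, with 3 at an unadjusted p under 0.05, against the same 11.2%, and the median was 1.06. Those 3 were Igf2r, Grb10 and H13, and H13, which encodes a signal peptide peptidase, was lower at 2431 and 6366 against 1678 and 997. On the opposite strand, Zrsr1 shares 412 exon bases with Commd1, and H13 shares 760 with the model Gm26841. Without the strand setting, the source of reads from those bases cannot be told apart. For Ascl5Mut/WT, 6 paternally and 5 maternally expressed genes were tested, with 0 called by limma, 2 and 0 at an unadjusted p under 0.05 (8.73% of all tested genes), and medians of 0.99 and 0.58. Zrsr1 again passed the minimum only through the mutant libraries.

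Markers of other tissues differed between the libraries. The summed level of 9 skeletal muscle genes was 543 and 12211 normalized counts in Ascl5WT/WT, 95704 and 5387 in Ascl5Mut/Mut and 27688 and 7074 in Ascl5Mut/WT molars. Most of it was Myh8, a perinatal myosin heavy chain, at 68080 in Ascl5Mut/Mut replicate 1, while the myogenic factor Myod1 was listed at 0 in all 6 libraries and Myog stood at 281 in that replicate only. Peg3 and Rtl1 had the same order as this sum in the Ascl5Mut/Mut table, lowest in Ascl5WT/WT replicate 1 and highest in Ascl5Mut/Mut replicate 1. H19, Igf2 and Copg2 were also lowest and highest in those libraries. These genes stood higher in Ascl5Mut/Mut replicate 2 than in Ascl5WT/WT replicate 2, while the muscle sum stood lower there. Of the muscle list, Des alone was higher in that replicate, at 0 and 116 in Ascl5WT/WT and 1965 and 980 in Ascl5Mut/Mut libraries. Igf2 was 4052 and 3959 in the Ascl5Mut/Mut libraries, where the muscle sum was 95704 and 5387. The part of muscle RNA in these values was not tested.

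**Figure D5:**
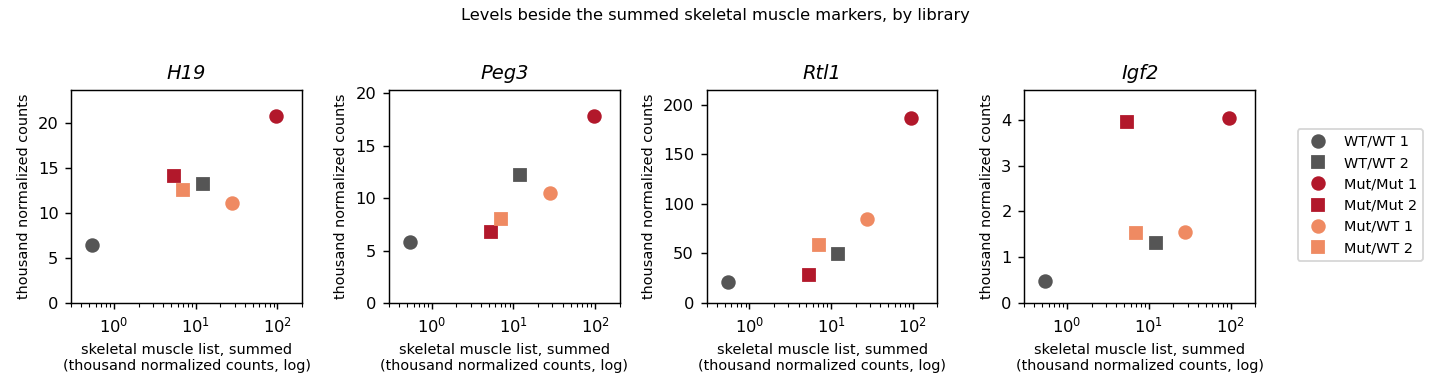
Levels of H19, Peg3, Rtl1 and Igf2 (linear axis) against the summed level of 9 skeletal muscle genes (log axis), both as normalized counts divided by 1000, 1 point per library, with the Ascl5WT/WT libraries from the Ascl5Mut/Mut table. Ascl5Mut/Mut replicate 1 lies farthest right in each panel and highest for all 4 genes. Igf2 in Ascl5Mut/Mut replicate 2 lies at nearly the same height with a muscle sum of 5387.

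Bone, connective tissue and dental markers also differed between the libraries. The sum of 6 osteoblast genes was 2060 and 7971 in Ascl5WT/WT, 33213 and 26413 in Ascl5Mut/Mut and 26281 and 10117 in Ascl5Mut/WT molars. In Ascl5Mut/Mut molars most of it was the matrix genes Ibsp, at 21832 and 19262, and Spp1, at 8305 and 5100, and the defining factor Runx2 was at 1405 and 540 in Ascl5WT/WT and at 0 and 141 in Ascl5Mut/Mut libraries. The sum of 5 fibroblast genes was 19325 and 25914 in Ascl5WT/WT, 57301 and 36558 in Ascl5Mut/Mut and 52304 and 33302 in Ascl5Mut/WT molars. In each table these sums were higher in both mutant libraries than in both controls, as were Copg2 and Igf2. Dcn, a defining fibroblast marker, was at 0 in 3 of the 4 libraries of the Ascl5Mut/Mut table. The 7 dental mesenchyme markers summed to 58826 and 61207 in Ascl5WT/WT and to 18800 and 10839 in Ascl5Mut/Mut molars, with Dlx1 alone at 47224 and 53336 in the controls and 2348 and 556 in the mutants. Vim, the other tested marker of that list, stood the other way, at 9492 and 6430 in Ascl5WT/WT and 15610 and 9987 in Ascl5Mut/Mut libraries. The 7 dental epithelium markers summed to 42197 and 30741 in Ascl5WT/WT, 8235 and 27742 in Ascl5Mut/Mut and 22285 and 55874 in Ascl5Mut/WT molars. Trp63, the epithelial stem cell factor p63, stood at 21134 and 13757 in Ascl5WT/WT and 1049 and 5829 in Ascl5Mut/Mut libraries (log2 fold change -2.70, limma unadjusted p = 0.00267, adjusted p = 0.145). Krt5 stood at 2304 and 1759 against 824 and 987, while Krt14 overlapped at 6362 and 20549 in the mutants. Shh stood at 2146 and 1340 in Ascl5WT/WT and at 0 in both Ascl5Mut/Mut libraries. Epcam stood at 217 and 120 against 0 and 0, all within the worth of 3 reads. The part of these tissues in the levels of Copg2, Igf2, H19, Meg3, Cdkn1c and Plagl1 was not tested.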

How the data were processed

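Per the labels' protocols, total RNA of maxillary first molars was made into stranded libraries. The mm10 genome and DESeq2 are named in the submitters' processing notes without versions. Aligner, annotation and strand setting: not given in the sources used here. Values are a linear signal, the normalized counts deposited by the authors as 2 tables (24972 genes each, 24961 names in both). Of low values, 83.9% to 93.5% per library lay within 0.1 of whole steps, which is too few for whole reads to be recovered, and count models were left out. limma 3.58.1 (R 4.3.3) with an intensity trend was fitted in each table on log2(value + 120) with a minimum mean of 1000, with Benjamini-Hochberg adjustment, and was tested on simulated data. Lengths and positions came from GENCODE M21 (GRCm38, matching 98.0% of genes), and sequences from RefSeq (GRCm38.p6). The text names all members, called list genes, up to 4 of the highest tested genes a list, genes overlapping a member, cluster neighbours and the 5 nearest patterns to Mest and Copg2. Some list and marker genes below the minimum mean were chosen after their values were seen. The members, lists, tests and settings were chosen with earlier results of these data known. Alternatives changed the pseudocount, minimum mean, scaling, trend and replicate block, and left out each library. Libraries with the same number were not treated as pairs.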

Additional observations from a re-analysis of the deposited data

How the results depend on the processing

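The number of genes called depended on the settings of limma. For Ascl5Mut/Mut it was 20, and became 4 with a pseudocount of 1, 29 with a pseudocount of 500, 1 with a minimum mean of 10 or with no filter (the same 12731 genes), 14 with equal totals, and 0 both with the pseudocount of 1 and minimum of 10 together and without the trend (1280 and 242 genes at an unadjusted p under 0.05). For Ascl5Mut/WT it was 13, and became 8 with a pseudocount of 1, and 0 with both changed or without the trend (1055 and 190 at an unadjusted p under 0.05). Leaving out each library gave 0 to 33 and 0 to 34 calls. There were 0 without either mutant library in both tables, 7 and 33 without Ascl5WT/WT replicate 1 or 2 for Ascl5Mut/Mut, and 20 and 34 for Ascl5Mut/WT. A library left alone in its group was assumed to vary like the other group.

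The 1 member called for Ascl5Mut/Mut, Copg2, was not called (0 members) with a pseudocount of 1, a minimum mean of 10, no filter, both changed, or without the trend, with limma adjusted p of 0.241, 0.314, 0.314, 0.308 and 0.446. It was called with a pseudocount of 500 (0.0194), equal totals (0.0463) and the replicate block (0.00726). The SE of the Copg2 fold change was 0.256 with the trend and 0.540 without it. Leaving out each library gave 0 to 0 members called for Ascl5Mut/Mut and 0 to 1 for Ascl5Mut/WT. Over the fits without a library, Peg3 ran from -0.314 to 1.073 for Ascl5Mut/Mut. Its range for Ascl5Mut/WT was -0.474 to 0.625, that of Mest -0.172 to 0.0847 and that of H19 -0.217 to 0.829. All other tested members kept their sign under every alternative run, but not their size: for Ascl5Mut/Mut, Cdkn1c ran from 1.43 to 3.96, Igf2 from 1.52 to 2.79, H19 from 0.37 to 1.38 and Plagl1 from 0.86 to 1.99 in the fits without a library.

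The labels number the libraries, but deviations of same-numbered libraries correlated at only -0.0134 and 0.0227, so the numbers were not taken as pairs. A fit with the replicate block gave 36 calls for Ascl5Mut/Mut and 37 for Ascl5Mut/WT. Depth limits Dlk1, Ndn, Cdkn1c, Meg3 and Igf2, since each had a library at 0 or below an estimated 4 reads.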

Other observations

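Other genes of the cell cycle machinery, related to Cdkn1c by function and not by position, were also described. Cdkn1b, which encodes the related inhibitor p27, stood at 110 and 246 normalized counts in Ascl5WT/WT and at 825 and 1071 in Ascl5Mut/Mut molars, below the minimum mean for a test. Ccnd1, which encodes cyclin D1, stood at 10270 and 7039 against 7416 and 3140, which overlapped (log2 fold change -0.80, limma adjusted p = 0.579). Of 15 inhibitors and cyclins of G1, 3 were tested in each table, and limma called 0 with 0 at an unadjusted p under 0.05.

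Of 14 genes that keep or read imprints, 2 were tested in each table and limma called 0. For Ascl5Mut/Mut and Ascl5Mut/WT, 0 and 1 had a limma unadjusted p under 0.05 (11.2% and 8.73% of all tested genes). Ezh2, the catalytic subunit of Polycomb repressive complex 2, stood at 3417 and 2548 in Ascl5WT/WT and at 1818 and 1198 in Ascl5Mut/Mut molars (log2 fold change -0.94, limma adjusted p = 0.581). In Ascl5Mut/WT molars Ezh2 stood at 503 and 1067, against 3486 and 2659 in the controls of that table (log2 fold change -1.88, limma adjusted p = 0.335). The Ascl5Mut/WT mean of Ezh2 was under 1000, so Ezh2 passed the minimum only through the controls and had to be lower in the mutants. That fold change and the count for Ascl5Mut/WT are a description. Ezh2 is also a gene of dividing cells, and the part of cell division in these values was not tested.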
